A study of Mus musculus with 284 samples.

Results

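Single tumour propagating cells from mouse skin tumours were divided by whether they held any transcript of Spink5, the gene of the protease inhibitor LEKTI. The cells were selected on the measured Spink5 value alone: a cell counted as Spink5-positive when its deposited expected count for the gene was above 0, and 135 of the 284 cells met that rule, while 149 had a count of 0. All cells came from 4 tumour-bearing C57BL/6 mice that carried the ROSA26-LSL-eYFP reporter and Keratin14-Cre, which turns the reporter on in keratin 14-expressing epithelium and its descendants. Every animal had received DMBA, a carcinogen, once at 8 weeks of age and then TPA, a tumour promoter, for more than 20 weeks. Tumours were digested with trypsin, and living cells (negative for propidium iodide) with CD34, CD49f and YFP were sorted 1 per well and read by a modified Smart-seq2 protocol. Mice WT1 and WT2 are labelled wild type and mice KO1 and KO3 are labelled Sirt6-/-, a loss of the histone deacetylase SIRT6. Spink5-positive cells numbered 26 of 69 in WT1, 31 of 88 in WT2, 38 of 73 in KO1 and 40 of 54 in KO3. Values for the 4 mice are given in that order throughout.

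LEKTI is made as a chain of Kazal-type inhibitor domains that is cut and secreted by keratinocytes. In normal epidermis it is a product of the granular layer, where it holds back kallikreins, the serine proteases that cut the desmosomal links between cornified cells. Loss of the gene causes Netherton syndrome, with premature shedding of the horny layer. Basal keratinocytes, which carry CD49f (integrin alpha 6) and the keratins Krt5 and Krt14, leave the basement membrane, switch to Krt1 and Krt10, and later make Casp14, Tgm3 and the proteins of the cornified envelope.

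The cells had between 523998 and 1684463 counts (median 1130411) and between 3235 and 8470 detected genes (median 6364). Krt5 and Krt14 had a count in 100.0% of the cells with and of those without Spink5. Trp63, the transcription factor of stratified epithelia, had one in 94.8% of the cells with Spink5 and 100.0% of those without. The transcripts of the surface proteins used in the sort, Itga6 and Cd34, were found in 88.9% and 65.9% of the cells with Spink5, and in 94.6% and 79.2% of those without. Each plate held cells of a single genotype label, and the effects of plate and genotype cannot be told apart. The Sirt6 transcript did not separate the labels: its summed level was 9.76, 20.3, 23.9 and 14.4 CPM (counts scaled to a common total per sum) in the cells with Spink5 and 20.6, 29.7, 29.1 and 15.3 CPM in those without. A count per gene cannot show a deletion of part of a gene, so the label could not be checked this way.

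Of the markers listed for other cell types, some were at 0 and others were not. Counts were found for 5 of 8 fibroblast, 4 of 6 endothelial, 7 of 9 immune and 2 of 5 melanocyte markers. They were also found for 6 of 7 muscle and adipocyte, 8 of 10 sebaceous gland and 10 of 12 hair and inner root sheath markers. The fibroblast genes Col1a2, Dcn and Lum, the endothelial genes Kdr and Emcn, the immune genes Cd3e and Cd207, the melanocyte genes Tyr, Dct and Tyrp1, and the adipocyte gene Adipoq had 0 counts in all cells. The summed level of the 8 fibroblast markers lay between 103.5 and 191.0 CPM per mouse in the cells with Spink5 and between 135.4 and 303.9 CPM in those without. Most of it came from Fbln1, with 179.9, 107.6, 192.1 and 176.1 CPM with Spink5 by the slightly different scaling of the gene tests. Without Spink5 it had 225.5, 141.4, 211.5 and 288.4 CPM. The ranges of summed level with and without Spink5 were 7.02 to 37.9 and 0.316 to 28.7 CPM for the 9 immune markers. They were 278.1 to 327.0 and 319.6 to 494.2 CPM for the 10 sebaceous gland markers. For the 7 muscle and adipocyte markers they were 1.76 to 61.1 and 2.32 to 18.5 CPM, and for the 12 hair and inner root sheath markers 17.0 to 71.5 and 35.3 to 90.2 CPM. The 6 endothelial markers summed to between 0 and 11.3 CPM with Spink5 and between 3.97 and 9.99 CPM without, and the 5 melanocyte markers to between 0.295 and 5.87 and between 0 and 4.83 CPM.

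Spink5 (ENSMUSG00000055561.9) lies at chr18:43963235-44022501 on the plus strand of GRCm38. The share of cells with the transcript was 37.7% in WT1 (exact 95% binomial interval 26.3 to 50.2), 35.2% in WT2 (25.3 to 46.1), 52.1% in KO1 (40.0 to 63.9) and 74.1% in KO3 (60.3 to 85.0). Both mice labelled Sirt6-/- thus had a larger share than both labelled wild type, and KO3 had the largest. The intervals cover counting error only, the interval of KO1 overlaps those of both wild-type mice and of KO3, and the shares are a description of the split with no test. After each cell was thinned to 500000 counts the shares were 36.2%, 33.0%, 50.7% and 74.1%. Where plates could be compared within a mouse, the share was 50.8% on plate 1 and 62.5% (5 of 8 cells) on plate 2 in KO1, and 35.8% on plate 4 and 28.6% (2 of 7 cells) on plate 3 in WT2.

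Among the positive cells, the level of Spink5 spanned from 3.99 to 1640 CPM in WT1 with a median of 400.2. It ran from 0.795 to 1979 CPM in WT2 (median 123.1), from 0.618 to 5441 CPM in KO1 (median 613.0) and from 6.95 to 5285 CPM in KO3 (median 444.4). The positive cells of WT2 had the lowest median, and the highest single cells were in the mice labelled Sirt6-/-. The threshold fell in a thin part of the range: 9 of the 135 cells had between 1 and 9 counts, and the lowest were 1, 1, 1, 1, 2, 4 and 4 counts, while every cell outside had 0. Of the 120000 Spink5 counts in all, the cell with the most held 4.93%.

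**Figure D1:**
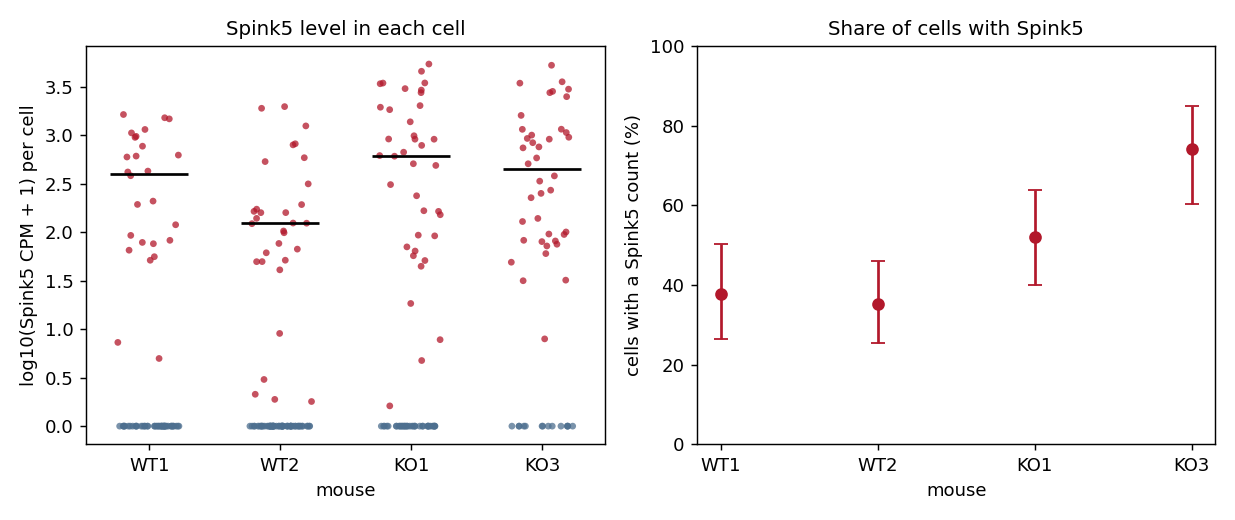
Left, log10(Spink5 CPM + 1) of each of the 284 cells by mouse, with red points for cells with a count, blue points for cells at 0 and a black line at the median of the cells with a count; right, the share of cells with a Spink5 count with exact 95% binomial intervals. The share was 37.7% and 35.2% in the mice labelled wild type and 52.1% and 74.1% in those labelled Sirt6-/-, and most positive cells lie well above the lowest counts.

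Cells with Spink5 held more detected genes than their neighbours from the same mouse, at similar depth. The median number of detected genes was 7130, 6129, 6725.5 and 6630.5 with Spink5 and 6561, 5584, 5769 and 6411.5 without. Medians of total counts were 1194974 against 1140973, 1071772 against 1031409, 1114168 against 1116804 and 1266651 against 1244888. The share of counts from mitochondrial transcripts was lower with Spink5 in each mouse, at 1.19% against 1.44%, 1.39% against 1.75%, 1.74% against 2.04% and 1.38% against 2.02%. Of the cells above their mouse's median of detected genes, 52.9%, 45.5%, 75.0% and 77.8% had a Spink5 count, and of those at or below it 22.9%, 25.0%, 29.7% and 70.4%. Detected genes therefore moved with the split, most in WT1 and KO1 and little in KO3, and the gene comparison was also made with that number as a covariate.

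**Figure D2:**
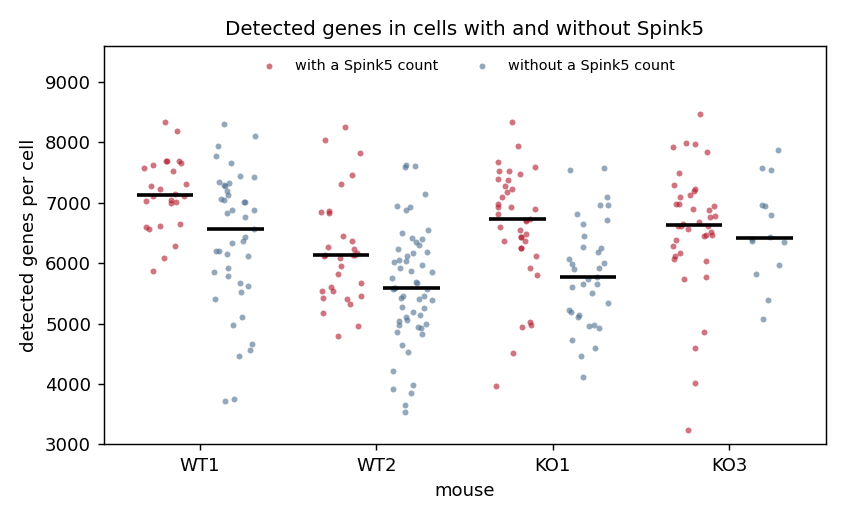
Detected genes per cell (vertical axis, which starts at 3000) by mouse in cells with a Spink5 count (red) and without one (blue), with a black line at each median. The median is higher with Spink5 in each of the 4 mice, by the widest gap in KO1 (6725.5 against 5769) and the narrowest in KO3 (6630.5 against 6411.5).

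Whether Spink5 marks late differentiation was asked with Casp14, a protease of cornifying cells, Tgm3, a transglutaminase that cross-links the cornified envelope, and Krt13, a keratin of the upper layers of mucosa that also appears in skin papillomas. Transcripts of these genes were found almost only in cells that also held Spink5. Tgm3 had a count in 46 cells, and 46 of them had Spink5. Casp14 was found in 37 cells, 33 of them with Spink5, and Krt13 in 26 cells, 22 of them with Spink5. The reverse was not so: 63 of the 135 Spink5-positive cells (46.7%) had a count of at least 1 of the 3 genes, 28 had at least 2, 10 had all 3, and 72 had none.

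Tgm3 was found in 11 of 26, 4 of 31, 12 of 38 and 19 of 40 cells with Spink5, which is 42.3%, 12.9%, 31.6% and 47.5%. It was found in 0 of 43, 0 of 57, 0 of 35 and 0 of 14 cells without, or 0 of 149 in all, whose exact 95% interval reaches 2.45%. In WT2 the intervals overlapped (3.63 to 29.8% with Spink5, 0 to 6.27% without). In every mouse most cells with Spink5 had no Tgm3. The 14 cells of KO3 without Spink5 alone allow up to 23.2%. The summed level of Tgm3 was 77.3, 7.00, 90.4 and 180.5 CPM with Spink5 and 0 CPM without in each mouse. Against an assumed floor of 3 counts over all cells without, the ratio was 5160. This floor takes counts as independent, but the 14872 counts of Tgm3 lay in 46 cells. A single missed cell could hold far more than 3 counts, so the ratio is no lower bound. KO3 held much of the Tgm3 count, and without KO3 the same ratio was 2882. In edgeR's quasi-likelihood test over the 4 mice Tgm3 had an unadjusted p of 0.000317 and an adjusted p of 0.0760 (Benjamini-Hochberg), just outside the threshold of 0.05, with DESeq2 giving an adjusted p of 4.54e-31 and limma-voom 0.0226. After thinning, the fitted log2 difference was 7.11 in place of 14.38, both of which depend on the prior count, and 1 of 153 cells without Spink5 had Tgm3, a cell whose own Spink5 count was lost by the thinning.

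Casp14 was found in 11.5%, 19.4%, 23.7% and 37.5% of the cells with Spink5 and in 2.33%, 0%, 8.57% and 0% of those without. Its summed level was 5.80, 9.08, 29.3 and 35.5 CPM with Spink5 and 1.32, 0, 6.72 and 0 CPM without. All 4 mice had the higher level with Spink5, but the spread between mice was wide and the adjusted p by edgeR was 0.439 (unadjusted 0.0628). Krt13 was found in 23.1%, 3.23%, 15.8% and 22.5% of the cells with Spink5 and in 6.98%, 1.75%, 0% and 0% of those without. Its summed level was 119.6, 0.599, 53.3 and 89.1 CPM with Spink5 and 6.20, 0.510, 0 and 0 CPM without. In WT2 the levels with and without Spink5 were nearly the same and rested on 1 cell each, and the adjusted p by edgeR was 0.393 (unadjusted 0.0459). DESeq2 called both genes, with adjusted p of 0.000473 for Casp14 and 0.00797 for Krt13. With detected genes as covariate, limma gave adjusted p of 0.105 for Tgm3 and 0.146 for Casp14, and Krt13 was found in too few cells to be tested.

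**Figure D3:**
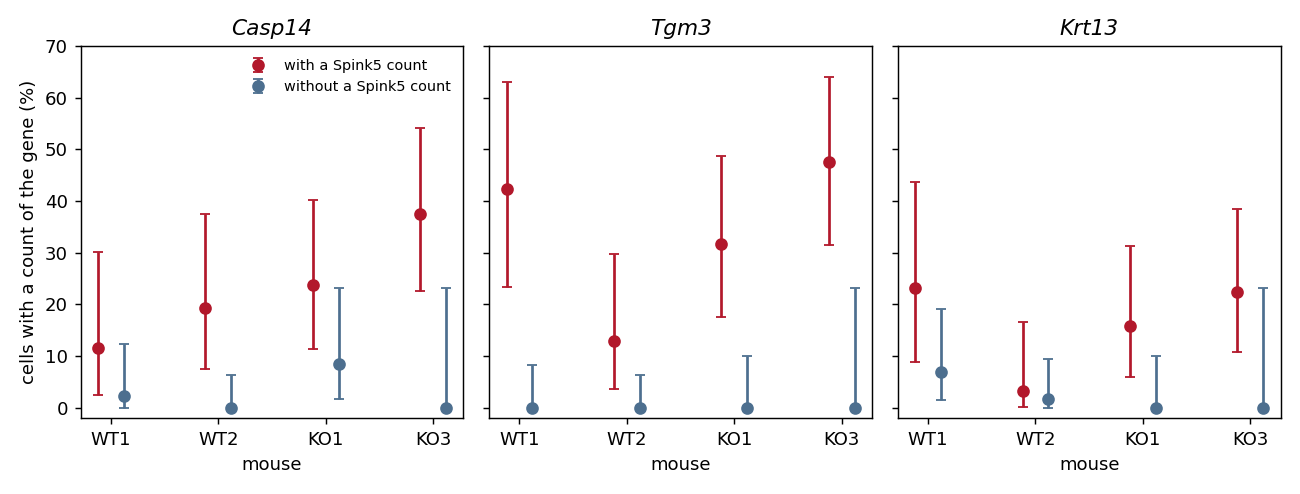
Share of cells with a count of Casp14, Tgm3 or Krt13 (vertical axis, percent) in each mouse, for cells with a Spink5 count (red) and without one (blue), with exact 95% binomial intervals. Tgm3 stands at 0 without Spink5 in every mouse, and Krt13 in WT2 is close to 0 in both (3.23% and 1.75%).

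Within the positive cells, Tgm3 was more frequent where Spink5 was high. Above the mouse's median Spink5 level, 8 of 13, 4 of 15, 11 of 19 and 11 of 20 cells had Tgm3, and at or below it 3 of 13, 0 of 16, 1 of 19 and 8 of 20. The rank correlation (Spearman's rho) across the positive cells of a mouse was 0.37, 0.46, 0.63 and 0.33 for Tgm3 over 26, 31, 38 and 40 cells. For Casp14 it was 0.28, 0.36, -0.03 and -0.06, so the mice labelled Sirt6-/- showed no such order for that gene. The points of each correlation are cells of 1 animal that differ in depth, and the values are descriptive. For detected genes the same correlation was -0.01, 0.46, 0.07 and -0.29, and for total counts -0.23, 0.01, -0.18 and 0.03.

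Gene by gene, the summed counts of cells with and without Spink5 were compared within each mouse, with 4 mice as replicates. Of 14114 genes tested with edgeR, 5 rose with Spink5 (0.0354% of those tested) and 2 fell (0.0142%). A further layer lay below that threshold: 1751 genes had an unadjusted p under 0.05, 908 of them higher (6.43%) and 843 lower (5.97%), and 12.6% of all genes were higher and 10.7% lower in each of the 4 mice. Since the rule split the cells by 1 gene of this same table, Spink5 was left out of the tests. The cells with and without Spink5 of a mouse share the animal, and those of KO1 and WT2 lay on 2 plates each. Without the 15 cells off their mouse's main plate, edgeR called 0 genes in either direction (1684 at an unadjusted p under 0.05). With any 1 mouse left out, 0 genes passed with edgeR in either direction (1281 to 1503 genes at an unadjusted p under 0.05).

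The 5 genes that rose were Pinlyp, Teddm3, Gjb2, Dmkn and Fdps. Pinlyp, named for its likeness to phospholipase A2 inhibitors, had 140.2, 79.4, 152.9 and 193.9 CPM with Spink5 and 20.0, 6.82, 19.0 and 16.1 CPM without. Every value with Spink5 lay above every value without, and the log2 difference was 3.24 ± 0.19 (SE, n = 4 mice; edgeR adjusted p = 0.0362). Gjb2, the gap junction protein connexin 26 that keratinocytes make in wounds and in hyperplastic skin, had 1254, 157.0, 579.9 and 1091 CPM with Spink5 and 198.7, 26.0, 92.4 and 313.1 CPM without. WT2 was low on both sides, so the groups overlapped across mice, but in each mouse the cells with Spink5 held more (log2 difference 2.43 ± 0.18, edgeR adjusted p = 0.0449).

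Dmkn, the secreted epidermal protein dermokine, had 1104, 994.4, 739.8 and 1537 CPM with Spink5 and 420.4, 395.2, 238.6 and 494.8 CPM without, a log2 difference of 1.50 ± 0.09 (edgeR adjusted p = 0.0362). All values with Spink5 were above all values without. Fdps, which makes farnesyl pyrophosphate for cholesterol, had 223.7, 135.7, 160.2 and 299.5 CPM with Spink5 and 101.4, 54.8, 60.3 and 123.3 CPM without (log2 difference 1.28 ± 0.09, edgeR adjusted p = 0.0449). Teddm3, a membrane protein gene, had 320.8, 92.6, 165.0 and 309.1 CPM against 51.0, 13.2, 17.1 and 62.5 CPM (log2 difference 2.76 ± 0.18, edgeR adjusted p = 0.0376).

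Of the 2 genes that fell, Cxcl1 encodes a chemokine that draws neutrophils. It had 136.3, 34.9, 73.8 and 118.7 CPM with Spink5 and 389.4, 122.5, 266.8 and 462.9 CPM without, a log2 difference of -1.79 ± 0.11 (edgeR adjusted p = 0.0362). WT2 was low on both sides, and in each mouse the cells without Spink5 held more. Agrn, the basement membrane proteoglycan agrin, had 70.4, 130.6, 93.3 and 54.7 CPM with Spink5 and 193.1, 320.4, 221.8 and 140.5 CPM without (log2 difference -1.34 ± 0.09, edgeR adjusted p = 0.0376), with no overlap between the groups.

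The next genes by p-value that pointed the same way in all 4 mice did not pass by edgeR, at adjusted p between 0.0513 and 0.074. On the higher side they were Klk10, a kallikrein (2.51 log2), Nectin4, an adhesion protein (2.55), Prom2, a membrane protrusion protein (2.42), and Cers3, the ceramide synthase of barrier lipids (2.03). Gsta4, a glutathione transferase (1.58), S100a16 (0.87) and Dstn, an actin-severing protein (0.82), completed that side. On the lower side were Porcn, which lipidates Wnt proteins (-1.93), Col23a1, a transmembrane collagen (-1.91), Clic4 (-1.74), Cbs (-1.49) and P4ha1, a collagen prolyl hydroxylase (-1.49). Moxd1 (-1.28), Epcam (-0.90), the ERK phosphatase Dusp6 (-0.90) and Ifitm3 (-0.83) followed. Pdgfc, a platelet-derived growth factor, had 0, 0.0315, 0 and 0 CPM with Spink5 and 17.6, 18.1, 7.19 and 0.636 CPM without. It was found in 10.2% of the cells, and 1 cell held 30.3% of its counts.

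**Figure D4:**
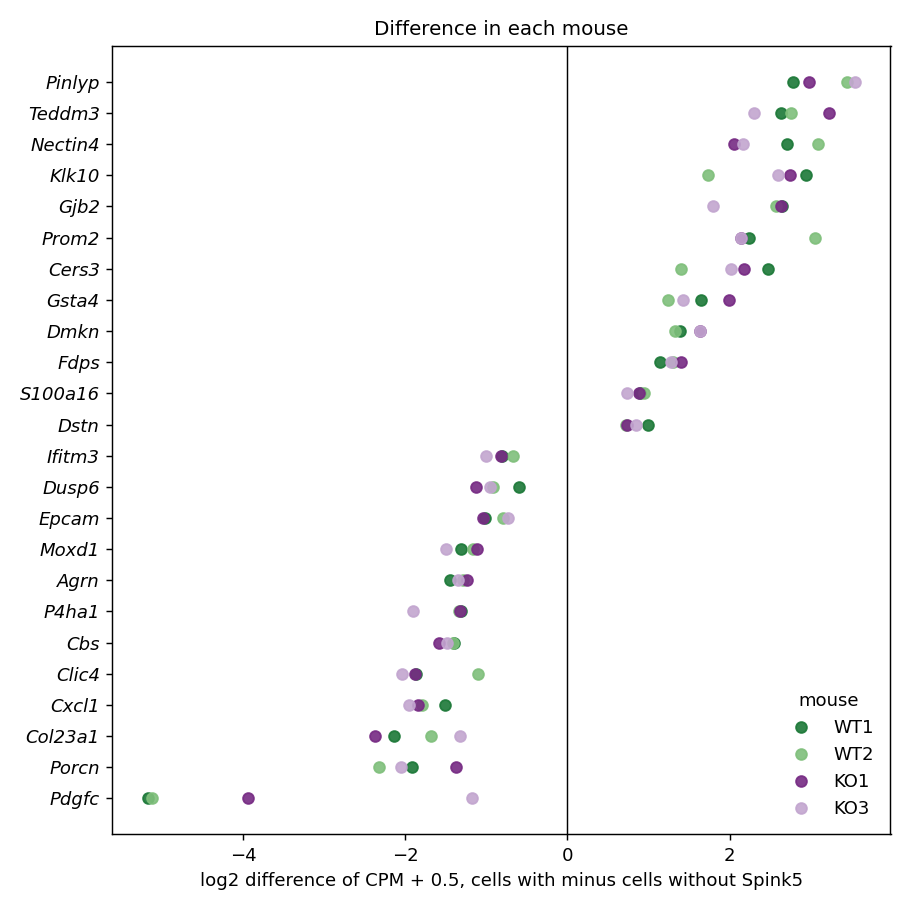
Difference in each mouse (horizontal axis, log2 of CPM + 0.5 in cells with minus cells without Spink5) for 12 genes higher and 12 lower with Spink5, with 1 point per mouse. All points of a gene lie on the same side of 0, from Pinlyp at 2.78 to 3.55 down to Pdgfc at -5.18 to -1.18; the genes were chosen for that sign and for small p, so it is no separate result.

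With detected genes and log10 total counts as covariates within each mouse, limma on the 4 per-mouse coefficients called 25 of 12089 genes higher (0.207%) and 22 lower (0.182%). The coefficients are on the log2(CPM + 1) scale per cell, so they also depend on how many cells hold a count. They are not log2 ratios of the summed levels. That scale understates the change of low genes, while other coefficients exceed the summed log2 difference. Cav1 had -2.86 against -0.91 in the sums, and Chit1 3.71 against 1.65. Pinlyp, Teddm3, Cxcl1 and Agrn were called in both fits, and all 47 genes had the same sign in the summed counts, 44 of them with an unadjusted p under 0.05 there. With any 1 mouse left out, limma called 0 genes in either direction (1660 to 1818 genes at an unadjusted p under 0.05).

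Regulators and products of the differentiated layers were among the 25. Zfp750, a transcription factor that drives terminal differentiation, had 195.9, 312.5, 164.6 and 305.9 CPM with Spink5 and 69.2, 51.6, 57.6 and 54.8 CPM without (coefficient 3.42, limma adjusted p = 0.0393). Grhl3, a grainyhead-like factor of the barrier, had 123.4, 66.8, 72.7 and 89.7 CPM against 40.4, 6.22, 18.7 and 13.2 CPM (coefficient 2.09, limma adjusted p = 0.0448). Both were higher with Spink5 in every mouse with no overlap between the groups. Sult2b1, which makes cholesterol sulphate, had a coefficient of 3.28 (limma adjusted p = 0.0393), and Abca12, the lipid transporter of lamellar granules, 2.56 (limma adjusted p = 0.0473). Dsg1b, a desmoglein of upper layers, had 67.3, 70.1, 25.3 and 92.2 CPM with Spink5 and 2.40, 0.211, 0 and 3.76 CPM without (coefficient 2.49, limma adjusted p = 0.0393).

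Cst6, the cystatin that inhibits cathepsins and legumain in the upper epidermis, had 13.7, 15.4, 25.2 and 23.4 CPM against 1.45, 0.176, 0 and 3.28 CPM (coefficient 1.69, limma adjusted p = 0.0393), with 19.4% of its counts in 1 cell. Gm94 had 409.4, 355.2, 908.4 and 1441 CPM with Spink5 and 6.37, 10.4, 12.5 and 186.7 CPM without, and its coefficient of 4.72 (limma adjusted p = 0.0393) was the largest of the 25. Gm94 lies on the same chromosome as Spink5, at chr18:43777196-43792878 on the minus strand, 170356 bases before the start of Spink5. The chitinase gene Chit1 had the smallest p of the fit, with a coefficient of 3.71 (limma adjusted p = 0.0360).

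Among the 22 lower genes were Cav1, the coat protein of caveolae (coefficient -2.86, limma adjusted p = 0.0393), and Thbs1, thrombospondin 1 (-3.04, limma adjusted p = 0.0393). In WT2 Thbs1 had 1021 CPM with Spink5 and 2470 without, in KO1 126.6 and 1064 CPM and in KO3 69.1 and 558.2 CPM, so WT2 was high on both sides. The adhesion molecule Icam1 had a coefficient of -2.64 and Lgals9, galectin 9, one of -2.42 (limma adjusted p = 0.0438 for both). Cd34, a marker used for the sort, had 243.5, 77.8, 213.2 and 151.7 CPM with Spink5 and 377.8, 186.2, 263.5 and 216.1 CPM without (coefficient -1.98, limma adjusted p = 0.0438). Cd34 was thus lower with Spink5 in each mouse. The other sorted marker, Itga6, had 285.2, 192.9, 143.6 and 160.1 CPM against 244.8, 250.7, 125.0 and 223.6 CPM, with no common direction in the sums. With covariates Itga6 was lower as well but was not called (coefficient -0.96, unadjusted limma p = 0.00544, adjusted p = 0.121).

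Dmkn has 2 neighbours on chromosome 7, Sbsn (suprabasin) and Krtdap (keratinocyte differentiation associated protein), that encode further secreted proteins of the suprabasal layers. Sbsn had 144.6, 145.1, 123.1 and 136.9 CPM with Spink5 and 68.8, 57.7, 37.7 and 51.2 CPM without (adjusted p = 0.0624 by edgeR and 0.0438 by limma with covariates). Krtdap had 850.4, 630.8, 874.2 and 1249 CPM against 363.3, 176.8, 245.6 and 635.7 CPM (adjusted p = 0.0760 by edgeR and 0.111 by limma with covariates). The adjusted p of Dmkn with covariates was 0.0594 by limma, so neither fit called all 3 genes. As neighbours that were each higher with Spink5 in all 4 mice, they are shown with the 250 bases before their starts, from RefSeq's annotation of GRCm38.p6, plus strand, with a match to TGANTCA (the AP-1 site, both strands searched) in capitals, and for Krtdap also the match to TATAAA.
Sbsn, chr7:30751221-30751470: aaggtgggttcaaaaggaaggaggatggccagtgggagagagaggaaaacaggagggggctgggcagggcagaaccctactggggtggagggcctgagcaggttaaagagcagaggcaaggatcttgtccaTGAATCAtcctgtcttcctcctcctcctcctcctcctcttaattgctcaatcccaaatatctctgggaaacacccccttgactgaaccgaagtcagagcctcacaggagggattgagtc
Dmkn, chr7:30763506-30763755: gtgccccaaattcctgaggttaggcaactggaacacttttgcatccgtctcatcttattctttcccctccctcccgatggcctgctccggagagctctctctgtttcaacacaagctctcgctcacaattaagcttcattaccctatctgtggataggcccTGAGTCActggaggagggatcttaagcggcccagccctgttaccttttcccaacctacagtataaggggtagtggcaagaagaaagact
Krtdap, chr7:30787655-30787904: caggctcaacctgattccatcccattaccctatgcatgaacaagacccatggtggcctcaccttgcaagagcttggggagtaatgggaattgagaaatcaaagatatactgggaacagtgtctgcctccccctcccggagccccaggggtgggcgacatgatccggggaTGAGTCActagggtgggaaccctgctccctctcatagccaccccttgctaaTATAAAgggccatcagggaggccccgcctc
Each window holds 1 AP-1 match, which begins 119 bases before the start of Sbsn, 89 before that of Dmkn and 81 before that of Krtdap. Of 32851 such windows in the genome, 6.75% hold that motif. The TATAAA of Krtdap, 30 bases before its start, is a string found in 12.4% of windows. The grainyhead-like motif AACCNGTT, present in 1.79% of windows, has 0 matches in the 3. A match is a description of letters only.

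Lists of genes by role were counted next, at an unadjusted p under 0.05 in edgeR, beside the 6.43% higher and 5.97% lower of all genes and their median log2 difference of 0.02. A gene found in 1 kind of cell alone can pass the filter through that kind, so counts over tested members describe those members and not whole lists.

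Of the kallikreins and other skin proteases, 18 of 21 were tested and 9 were higher and 0 lower (median 2.44). Klk10 had 1609, 326.0, 838.4 and 2072 CPM with Spink5 and 209.2, 97.5, 125.3 and 341.9 CPM without. Klk13 had 58.9, 51.4, 41.2 and 137.2 CPM against 8.29, 5.75, 0.225 and 31.4 CPM, and Klk11 42.6, 41.1, 37.0 and 50.7 CPM against 4.75, 16.6, 3.47 and 15.8 CPM. The kallikreins best known as targets of LEKTI were nearly absent: summed over all cells, Klk5 had 32 counts with Spink5 and 0 without, Klk7 420 and 326, and Klk14 74 and 22. Of 20 tested protease inhibitors, 7 were higher and 1 lower (median 0.48), among them Serpinb5 (0.84 log2, edgeR adjusted p = 0.0979) and Spint1, an inhibitor of matriptase (0.89, edgeR adjusted p = 0.127). Of the other Spink genes only Spink10 and Spink2 could be tested, at unadjusted edgeR p of 0.207 and 0.77.

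The cornified envelope list of transglutaminases and cross-linked proteins had 9 of 12 tested members higher and 0 lower (median 2.20), with Dmkn as the member that rose. Tgm1, the membrane-bound transglutaminase, had 88.8, 11.8, 14.2 and 97.6 CPM with Spink5 and 11.7, 3.20, 0.0999 and 1.11 CPM without. Of the 48 genes of the epidermal differentiation complex, a chromosome 3 cluster of envelope genes, 11 could be tested and 5 were higher and 0 lower (median 1.96). Sprr1b, a small proline-rich envelope protein, had 286.9, 90.9, 271.9 and 516.2 CPM against 6.55, 4.27, 9.07 and 66.2 CPM (edgeR adjusted p = 0.0624). Products of the last steps were missing: Flg, Flg2 and Hrnr had 0 counts in all cells, and Lor had 23 counts with Spink5 and 18 without. Sprr1a and Sprr1b are close copies whose reads the counting may divide, as are Krt6a and Krt6b and the Dsg1 genes.

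Suprabasal keratinocyte genes, which share Dmkn, Sbsn, Krtdap and Cnfn with the envelope list, had 17 of 21 tested members higher and 1 lower (median 1.50). Lypd3 had 1402, 976.8, 735.2 and 1350 CPM with Spink5 and 285.0, 115.6, 191.8 and 414.5 CPM without (edgeR adjusted p = 0.0649). Krt1, the first keratin of the spinous layer, had a count in 38.5%, 61.3%, 52.6% and 55.0% of the cells with Spink5 and in 18.6%, 10.5%, 8.57% and 21.4% of those without. Its summed level was 304.6, 3008, 258.5 and 414.4 CPM against 158.0, 5.63, 59.0 and 23.3 CPM, highest by far in WT2 (edgeR adjusted p = 0.430). Krt10 went the other way in WT1, at 52.2 CPM with Spink5 and 91.5 without, and was higher with Spink5 in the other mice, at 1542, 49.5 and 232.3 CPM against 4.24, 6.79 and 6.62 CPM.

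By summed level, the positive cells of WT2 held the most Krt1, Krt10 and Ivl (involucrin, 32.8 CPM) and the least Krt13, Tgm3 and Tgm1 of the 4 mice. Those of WT1 held the least Casp14. By share of cells, KO3 lay above WT2 for Krt10 (65.0% against 61.3%) and Ivl (27.5% against 16.1%). Of all Krt10 counts, 1 cell held 19.3%. These differences between mice were not tested. Of 10 tested wound keratins and alarmins, 7 were higher and 0 lower (median 2.05). Krt6b, a keratin of wounds and hyperplastic skin, had 5862, 1163, 3012 and 5619 CPM with Spink5 and 509.0, 194.4, 148.1 and 872.0 CPM without, and was called with covariates (coefficient 2.59, limma adjusted p = 0.0448). Krt16 had 7990, 1812, 3538 and 6524 CPM against 436.9, 469.8, 282.7 and 825.8 CPM (edgeR adjusted p = 0.0786).

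Barrier lipid genes had 13 of 23 tested members higher and 1 lower (median 1.27). Elovl4, which builds very long fatty acids, had 148.2, 83.8, 74.3 and 177.9 CPM with Spink5 and 15.2, 0.0352, 4.42 and 6.04 CPM without (edgeR adjusted p = 0.214, limma with covariates 0.0550). Desmosome genes had 10 of 12 tested members higher and 0 lower (median 0.88), with Perp at 4544, 6342, 4644 and 4940 CPM against 2847, 3012, 2573 and 2262 CPM (edgeR adjusted p = 0.0624). Differentiation transcription factors had 8 of 20 higher and 2 lower (median 0.59), and the best known of them, Klf4, had 114.1, 71.7, 99.3 and 146.3 CPM against 72.7, 96.0, 83.2 and 146.0 CPM. Tight junction genes had 1 of 13 higher and 1 lower (median 0.71). With covariates 5 of 11 of them were higher and 0 lower at an unadjusted limma p under 0.05, where 7.30% of all genes were higher.

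Basal keratinocyte genes pointed down, with 10 of 18 lower and 1 higher (median -0.50). Krt15, a basal and stem cell keratin, had 203.7, 837.1, 390.3 and 103.9 CPM with Spink5 and 2303, 1426, 1408 and 1284 CPM without (edgeR adjusted p = 0.214). The chief basal keratins did not follow in the sums: Krt14 had 29093, 25840, 25474 and 28154 CPM against 19535, 34658, 14951 and 23257 CPM, and Krt5 6179, 7488, 5340 and 3636 CPM against 5996, 9468, 4391 and 4470 CPM. With covariates 14 of the 18 basal genes were lower and 1 higher at an unadjusted limma p under 0.05 (median coefficient -1.36). In that fit Krt5 had -0.58 (unadjusted limma p = 0.0291, adjusted p = 0.231) and Krt14 0.18 (unadjusted limma p = 0.512). Among 14 tested genes of the sort and of tumour propagating cells, 4 were lower and 1 higher (median -0.42). Sox9, a factor of hair follicle stem cells and of these tumours, had 75.0, 231.9, 58.5 and 49.3 CPM with Spink5 and 130.5, 269.2, 211.3 and 27.4 CPM without.

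In the Notch pathway, 3 of 11 tested members were lower and 1 higher (median -0.75). The receptor Notch1 had 229.3, 754.1, 392.8 and 223.5 CPM with Spink5 and 377.5, 596.6, 448.6 and 278.0 CPM without. The receptor Notch3 had 35.2, 39.4, 41.1 and 20.1 CPM with Spink5 and 17.2, 9.39, 19.8 and 7.05 CPM without, and was called higher with covariates (limma adjusted p = 0.0438). The ligand Jag2 had 75.5, 64.6, 102.2 and 65.3 CPM against 153.6, 139.1, 124.6 and 116.2 CPM, and was called lower with covariates (limma adjusted p = 0.0393). The ligands Jag1 and Dll1 were lower with Spink5 in all 4 mice, at edgeR adjusted p of 0.198 and 0.232. Genes of the TGF-beta response and mesenchymal transition had 5 of 17 lower and 0 higher (median -0.52), with Snai2 at 46.3, 63.9, 57.8 and 48.2 CPM against 84.7, 88.1, 139.8 and 59.8 CPM.

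Cell cycle genes depended on how detected genes were treated. In the summed counts 4 of 38 S phase genes and 6 of 48 G2/M genes were higher and 0 lower (medians 0.11 and 0.14). With detected genes as covariate, 16 of 38 and 18 of 48 were lower, and 0 and 1 higher (median coefficients -0.58 and -0.43), where 9.59% of all genes were lower and 7.30% higher. Mki67, the proliferation marker, had 113.9, 113.3, 104.4 and 231.8 CPM with Spink5 and 112.2, 79.4, 113.5 and 225.8 CPM without, a log2 difference of 0.11 (edgeR adjusted p = 0.822), beside a coefficient of -1.09 with covariates (limma adjusted p = 0.111). Top2a had a log2 difference of 0.10 and a coefficient of -1.27. The number of detected genes moved with the split, and which of the 2 values is nearer the state of these cells was not tested.

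Immediate early genes, which dissociation raises, had 8 of 20 members lower and 0 higher (median -0.35). Fos had 2860, 5138, 2665 and 2814 CPM with Spink5 and 3805, 6167, 3569 and 3645 CPM without (edgeR adjusted p = 0.119). With covariates 2 of these 20 were lower at an unadjusted limma p under 0.05, near the 9.59% of all genes. Antioxidant genes had 12 of 26 higher and 3 lower (median 0.25), with the glutathione peroxidase Gpx2 at 1066, 214.9, 1118 and 1302 CPM against 626.2, 111.4, 468.3 and 649.0 CPM (edgeR adjusted p = 0.0624). Glycolysis genes had 6 of 22 higher and 3 lower (median 0.17). Nuclear genes of oxidative phosphorylation had 5 of 48 higher and 1 lower (median 0.12). With covariates, at an unadjusted limma p under 0.05, 7 of 26 antioxidant genes were higher and 3 lower. For glycolysis 1 of 21 was then higher and 4 lower (median coefficient -0.01), and for oxidative phosphorylation 1 of 48 higher and 1 lower. Of all genes 7.30% were higher and 9.59% lower in that fit. Ldha had 6927, 4632, 5770 and 8254 CPM with Spink5 and 5240, 3669, 3721 and 6299 CPM without, while Ldhb had 37.9, 9.61, 40.8 and 14.2 CPM against 82.7, 23.2, 104.3 and 70.9 CPM. Their covariate coefficients were 0.19 and -1.93 (unadjusted limma p of 0.252 and 0.00406).

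**Figure D5:**
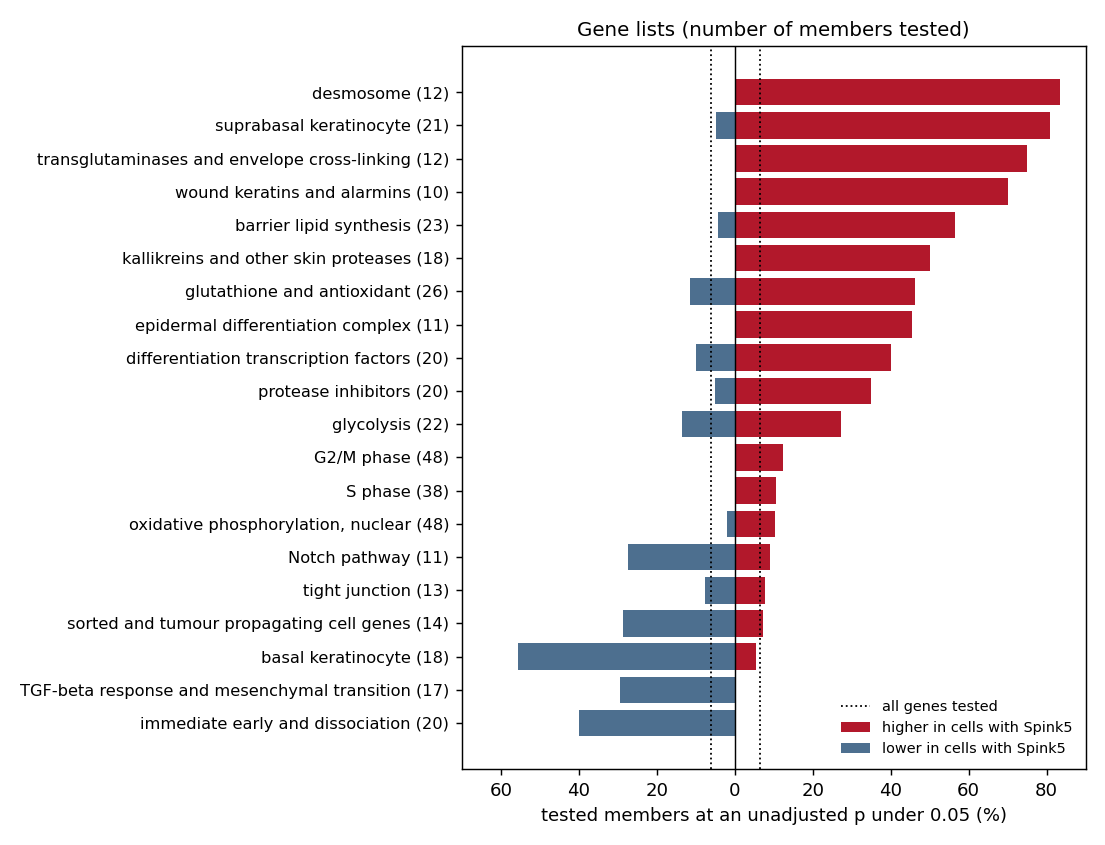
For each list with at least 10 tested members (number in brackets), the percent of members at an unadjusted edgeR p under 0.05 that were higher (red, right) or lower (blue, left) in cells with Spink5, with dotted lines at the 6.43% and 5.97% of all genes. Desmosome, suprabasal and envelope lists lie far to the right and immediate early and basal lists to the left; lists share members.

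Fabp4, a fatty acid binding protein known from adipocytes and vessels, was found mostly beside Spink5 but did not pass in either fit. It had a count in 31 of 135 cells with Spink5 (23.0%) and in 2 of 149 without (1.34%). Its summed level was 2.30, 1.73, 17.6 and 53.7 CPM against 0, 0.580, 0 and 0 CPM (edgeR adjusted p = 0.290, limma with covariates 0.167), and 36.8% of its counts came from 1 cell. Adipoq, the defining adipocyte gene, stood at 0, and Lpl had 0, 0, 0 and 9.43 CPM with Spink5 and 1.63, 4.22, 3.32 and 14.8 CPM without.

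Whether the difference between cells with and without Spink5 depended on the genotype label was tested as an interaction in edgeR, with 2 mice per label. No gene passed (0 of 14114, 0%), and 582 (4.12%) had an unadjusted p under 0.05, while DESeq2 called 84. Among the genes that rose or fell, the interaction (mice labelled Sirt6-/- minus wild type) ranged from -0.40 log2 for Gjb2 to 0.27 for Dmkn. Those genes were called for a difference that varied little between mice, so a small interaction is partly built into the choice. Outside them values were larger, such as 4.30 for Tgm1 and -0.88 for Jag1 (unadjusted edgeR p of 0.00170 and 0.0166), though neither passed. Tgm1 was near the floor without Spink5 in KO1 and KO3 (0.0999 and 1.11 CPM), and 1 cell held 22.3% of its counts. With 2 mice per label, a p that misses the threshold does not show that the labels act alike.

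The differences of the called genes were smaller among cells without the 3 late genes. After the 71 cells with a count of Casp14, Tgm3 or Krt13 were left out, a choice made after the data were seen, edgeR called 0 genes (870 at an unadjusted p under 0.05). The cells left out were 63 of the 135 with Spink5 and 8 of the 149 without, so smaller differences are partly built into the choice. Without those cells, Dmkn differed by 0.46 in place of 1.50 log2, Fdps by 0.36 in place of 1.28 and Gjb2 by 0.91 in place of 2.43. Pinlyp differed by 1.91 in place of 3.24, Teddm3 by 1.50 in place of 2.76, Agrn by -0.81 in place of -1.34 and Cxcl1 by -1.38 in place of -1.79. When cells with and without Spink5 were paired within mice by detected genes (85 pairs), 0 genes passed either. In those pairs Dmkn, Fdps, Gjb2 and Cxcl1 differed by 1.47, 0.98, 2.84 and -1.05 log2, and Pinlyp, Teddm3 and Agrn by 3.08, 2.74 and -0.88.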

How the data were processed

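The data are 284 Smart-seq2 libraries of single sorted cells from 4 mice. Per the submitters' processing notes, the authors used STAR and RSEM with the mouse build mm10 (GRCm38), and their versions and settings were not given in the sources used here. The deposited values are expected counts per gene, of which 21.5% of those above 0 were not whole, since reads are divided between similar genes. The protocol names no molecular identifiers, so intervals and floors cover counting error only. Symbols came from GENCODE M21 (54156 of 54247 IDs matched). No cell was left out and no doublet caller was run, since wells were sorted as single cells.

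The members and gene lists were chosen with earlier results of these data known. Expected counts were summed over the cells with and without a Spink5 count of each mouse, giving 8 sums that were rounded to whole numbers. They were tested with edgeR 4.0.16 in R 4.3.3 (TMM, filterByExpr, glmQLFit, glmQLFTest, two-sided, Benjamini-Hochberg, threshold 0.05), with the mouse as block because both sums of a pair come from the same animal (3 residual degrees of freedom). Summed levels are TMM-scaled CPM. For the covariate fit, log2(CPM + 1) per cell was regressed within each mouse on Spink5, detected genes and log10 total counts, for genes with a count in at least 10% of cells, and the 4 coefficients were tested with limma 3.58.1. The interaction with the genotype label left 2 residual degrees of freedom. Fits were run on simulated data whose sums varied less between replicates than the real ones, so their power here is not shown. There, 88% of 2-fold changes were recovered by Spink5, 96% in the covariate fit and 10% in the interaction. Of the genes called there, 5.5%, 6.7% and 4.9% were false. DESeq2 1.42.0 and limma-voom were alternatives. Spread measured between 4 mice is the only replicate error here.

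Genes were named by rule: 12 higher and 12 lower among those with an adjusted p of at most 0.05 and the same sign in 4 mice, filled up by smallest p, then Casp14, Tgm3, Krt13 and list members past the threshold or with the smallest p. Genes of the covariate fit and others described for their role (such as Krt1, Klk13, Elovl4, Mki67, Gm94) were chosen after their values were seen.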

Additional observations from a re-analysis of the deposited data

Results flagged for a closer look

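In 3 genes, the difference in 1 mouse lay apart from the other 3 by more than Dixon's criterion allows. The criterion was applied to 74 groups of 4 mice, and chance marks about 1 in 20 such groups. Gjb2 differed by 1.80 log2 (CPM + 0.5) in KO3 and by 2.57 to 2.65 in the other mice. Prom2 differed by 3.05 in WT2 and by 2.14 to 2.24 in the others. P4ha1 differed by -1.91 in KO3 and by -1.34 to -1.32 in the others.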

How the results depend on the processing

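The counts of genes called by edgeR (5 higher, 2 lower) moved with most choices. They were 3 and 2 with RLE size factors, 4 and 2 with no filter, 99 and 76 with genes at 10 CPM or more in at least 4 sums, 13 and 5 with at least 10 Spink5 counts against 0, 48 and 28 after thinning, 29 and 10 with each cell scaled to the same total, 573 and 573 with DESeq2, and 76 and 49 with limma-voom. They were 0 and 0 without cells off the main plate, with pairs matched on detected genes, and without cells with a late gene (chosen after seeing the data). Without the replicate block, which ignores that both sums come from 1 animal, they were 0 and 0, with 1057 genes at an unadjusted p under 0.05. Leaving out each mouse in turn gave 0 to 0 in both directions, WT1, WT2, KO1 and KO3 alike. With covariates, limma (25 higher, 22 lower) gave 64 and 59 with log2(CPM + 0.1), 0 and 0 with log2(CPM + 10), 258 and 75 without covariates, 62 and 58 for genes in at least 20% of cells, 0 and 0 for those in at least 5%, and 0 to 0 with each mouse left out. The interaction gave 54 and 30 with DESeq2. The cause of these changes was not tested.

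The 24 genes of the plot of differences were chosen for the same sign in all 4 mice and for small p. That none of them changed sign in 406 alternatives is therefore no separate result. Over all 73 named genes, 5 of 1213 did, none of them called: Spink2 was 0.04 with no replicate block, 0.13 without cells with a late gene and between -0.90 and 0.09 (without KO1) with 1 mouse left out, Ube2c was -0.20 with matched pairs, and Egfl7 lay between -1.45 and 0.49 (without WT2) with 1 mouse left out. Of the covariate coefficients, Ube2c was 0.65 and Egfl7 0.10 with no covariate, and Cd68 was -0.01 with at least 10 Spink5 counts. With 1 mouse left out Ube2c lay between -0.21 and 0.04, Atf3 between -0.07 and 0.53, Cyc1 between -0.03 and 0.31, and Egfl7 between -0.25 and 0.17 (0.08 without KO1). Shares of Spink5-positive cells moved by less than their intervals. With 4 mice and 14 to 57 cells per sum, small differences were not detectable.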

Other observations

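4 further groups of genes were listed after their values were seen, 3 of them around a gene that edgeR had called, so their counts describe a choice and test nothing. At an unadjusted edgeR p under 0.05, 6.43% of all genes were higher and 5.97% lower. Genes of cholesterol synthesis had 15 of 23 members higher and 0 lower (median 0.80 log2), with Fdps as the member that rose. Idi1, which acts just before Fdps, had 294.1, 121.5, 146.4 and 304.0 CPM with Spink5 and 142.5, 28.8, 31.1 and 161.2 CPM without. Sqle, the squalene epoxidase, had 240.9, 127.5, 156.5 and 274.0 CPM against 152.4, 39.6, 56.0 and 123.2 CPM. Retinoid metabolism had 6 of 13 tested members higher and 0 lower, with a median of 0.06 log2 beside 0.02 for all genes. Its retinol dehydrogenases Sdr16c5 and Rdh12 were called higher with covariates (coefficients 2.13 and 2.16, limma adjusted p = 0.0393 and 0.0448).

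Chemokines and adhesion molecules for leukocytes had 5 of 18 tested members lower and 1 higher (median -0.94), with Cxcl1 as the member that fell. Cxcl2, its neighbour on chromosome 5, had 14.2, 26.7, 0.460 and 4.15 CPM with Spink5 and 17.4, 92.4, 24.7 and 9.75 CPM without. Genes of collagen making and caveolae had 10 of 16 tested members lower and 0 higher (median -0.85), with Agrn as the member that fell. With covariates, 13 of these 16 were lower at an unadjusted limma p under 0.05, where 9.59% of all genes were. Of the 16, 7 were called lower, beside 0.182% of all genes. Among the 7 were Serpinh1, the collagen chaperone (coefficient -1.97, limma adjusted p = 0.0393), P4ha1 (-1.80, limma adjusted p = 0.0393) and Cavin3 (-1.81, limma adjusted p = 0.0438). Cavin3 had 78.8, 69.9, 40.1 and 40.8 CPM with Spink5 and 65.4, 155.6, 53.3 and 72.8 CPM without, so WT1 went the other way in the sums.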
